A study of Mus musculus with 6 samples.

Results

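The genes described here drive a cell through mitosis and divide it. They are 10 genes that encode the Aurora kinases (Aurka and Aurkb), the Polo kinase Plk1, the Aurora A activator Tpx2, the partners of Aurora B (Incenp, Birc5 and Cdca8) and 3 proteins of the spindle and the cleavage furrow (Prc1, Anln and Ckap2l). They were taken by name from a table of 54532 genes, and all 10 were measured in every sample. They were selected with the metformin response in these samples known, so the size and the direction of that response are given below as a description, without a test.

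MC3T3-E1 is a mouse cell line of pre-osteoblasts, cells that lay down mineralized matrix in osteogenic medium, which holds ascorbic acid, β-glycerophosphate and dexamethasone. The control group (3 samples) was kept in this medium for 3 days. The metformin group (3 samples) received the same medium with 0.2 mM metformin, a biguanide that lowers blood glucose. RNA sequencing compared the groups to find genes that respond to metformin during osteogenic induction.

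Entry into mitosis depends on kinases that are made and switched on late in the cell cycle and destroyed at its end. Aurora A works at the spindle poles, where Tpx2 binds and activates it. Aurora B sits in the chromosomal passenger complex with the scaffold Incenp and the targeting subunits survivin (Birc5) and borealin (Cdca8), first at centromeres and then at the spindle midzone. Polo-like kinase 1 acts from centrosomes to the cleavage site. Prc1 bundles antiparallel microtubules of the midzone, anillin (Anln) links actin, myosin and septins in the contractile ring, and Ckap2l is a microtubule-associated protein of the spindle. Transcription of such genes peaks in G2 and M phase, through a cell cycle homology region bound by the DREAM complex or by MuvB with B-Myb and FoxM1, often beside CCAAT boxes bound by NF-Y.

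Because these genes moved together, their promoters were read for the letters of those elements. RefSeq promoters held the 250 bases before a start and the 50 from it on (GRCm38.p6). They were read for 6 of the 10 genes: Aurka, Plk1, Birc5, Prc1, Anln and Ckap2l. Promoters of the remaining genes of the 10 are not reported here. The motif TTTGAA, the core of the cell cycle homology region, was searched on both strands and was present in 5 of the 6, always within 50 bases of the start, while 17.9% of all 32851 promoters held it anywhere and 4.94% within 50 bases of the start. The stretches of 30 bases around it are given here, 5′ to 3′ on the strand of the gene, with the motif in capitals (TTCAAA where it lies on the other strand).
Aurka, chr2:172370521-172370550, minus strand: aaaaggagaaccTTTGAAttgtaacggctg
Plk1, chr7:122159453-122159482, plus strand: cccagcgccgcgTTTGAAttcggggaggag
Prc1, chr7:80294434-80294463, plus strand: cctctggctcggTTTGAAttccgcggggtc
Anln, chr9:22389161-22389190, minus strand: tgaaattcaaatTTTGAAcggccgtggtag
Ckap2l, chr2:129297225-129297254, minus strand: ttattggcgaatTTCAAAgtcgcggaagcc
Positions count the start itself as 1 and the base before it as -1. The motif began at 33 in Aurka, 31 in Plk1, 29 in Anln and -5 in Prc1, or -30 from the second RefSeq start of Prc1. Anln held another copy on the other strand at 22. In Ckap2l it lay at -30 on the other strand and at 42 on the gene's own strand.

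CCAAT (or ATTGG on the other strand) was present in Aurka, Plk1, Prc1 and Ckap2l and in 37.4% of all promoters. No 2 of the searched motifs shared a base in these windows. Ckap2l is shown over 100 bases before the start because both elements lie there, and Birc5 because its window held neither.
Ckap2l, chr2:129297213-129297312, minus strand: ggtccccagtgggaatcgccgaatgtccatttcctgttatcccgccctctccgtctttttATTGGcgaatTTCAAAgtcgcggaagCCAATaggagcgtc
Birc5, chr11:117849137-117849236, plus strand: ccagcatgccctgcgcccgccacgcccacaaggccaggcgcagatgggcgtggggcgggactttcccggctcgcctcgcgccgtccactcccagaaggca
The capitals in Ckap2l mark, from left to right, ATTGG at -40, TTCAAA at -30 and CCAAT at -14. The variant core TTTAAA was found in Aurka, Plk1 and Birc5 (13.2% of all promoters and 9.20% of those of tested genes). The GC box GGGCGG was found in all but Aurka, and is common: 35.7% of all promoters and 63.9% of those of tested genes held it. Neither E2F motif searched, TTTCGCGC or TTTGGCGC, was found in a window of these genes (0.323% and 0.514% of all promoters). A match of letters is not a measured binding site, and the absence of a match covers only these windows.

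In every metformin sample, each of the 10 genes lay above its highest control sample. This holds for 23.6% of the 12681 tested genes. Metformin means were 3.72 to 7.94 times the control means. By limma-trend with Benjamini-Hochberg adjustment, all 10 were past an adjusted p-value of 0.05, against 13.2% of tested genes called higher, a count that the choice of the genes fixes and from which nothing is read. The median log2 fold change of the 10 was 2.33, beside 0.0053 for all tested genes. Values are FPKM, reads scaled by the listed gene length and by the size of the library, and log2 fold changes are of FPKM + 1, a scale that understates the change of genes with low levels. These are bulk samples, in which a larger share of cells in G2 and M phase and more of these transcripts per cell cannot be told apart.

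**Figure D1:**
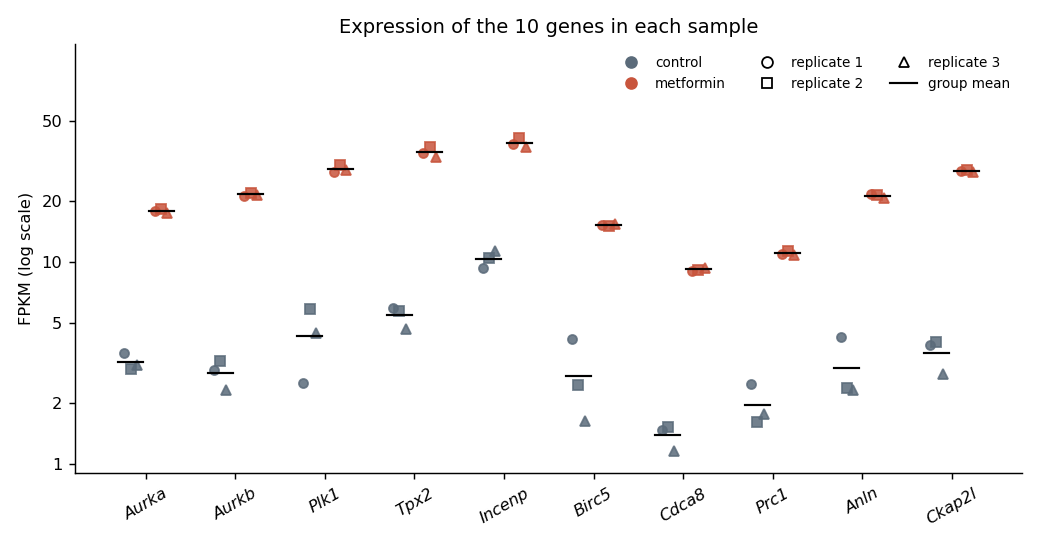
FPKM of each of the 10 genes (log axis) in the 3 control samples (grey) and the 3 metformin samples (red), with a black bar at each group mean and a symbol for each replicate number. Every red point lies above every grey point of its gene, the red points lie close together, and the control points of Plk1, Birc5 and Anln are the most scattered.

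The kinases came first in role. Aurka (ENSMUSG00000027496, chromosome 2, 172356190 to 172370535, minus strand) had 3.55, 2.96 and 3.08 FPKM in the control samples and 17.8, 18.3 and 17.6 FPKM with metformin. The controls differed little from each other, and the metformin mean was 5.59 times the control mean (log2 fold change 2.17 ± 0.085, SE).

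Aurkb (ENSMUSG00000020897, chromosome 11, 69045647 to 69051664, plus strand), the kinase that corrects faulty attachments of chromosomes and later guides cytokinesis, had 2.92, 3.22 and 2.33 FPKM in the controls and 21.3, 22.0 and 21.5 FPKM with metformin. Its fold of 7.65 was the second largest of the 10 (log2 fold change 2.57 ± 0.10). In the controls the ranges of Aurka and Aurkb overlapped, whereas with metformin all 3 values of Aurkb lay above those of Aurka, per listed length.

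Plk1 (ENSMUSG00000030867, chromosome 7, 122159439 to 122169873, plus strand) was measured at 2.52, 5.88 and 4.44 FPKM in the controls. Control replicate 1 was at 0.488 times the mean of the other controls. With metformin it had 27.9, 30.3 and 28.6 FPKM. The fold was 6.77 with all samples and 5.61 without control replicate 1 (log2 fold change 2.56 ± 0.23).

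Tpx2 (ENSMUSG00000027469, chromosome 2, 152847964 to 152895321, plus strand), which also promotes microtubule growth around chromosomes, had 5.92, 5.75 and 4.67 FPKM in the controls and 34.5, 36.9 and 33.2 FPKM with metformin. It was 6.41 times higher (log2 fold change 2.48 ± 0.10). Of the 10 genes it followed their mean profile over the 6 samples most closely, with a root mean square difference of 0.093 on the log2 scale.

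Among the partners of Aurora B, Incenp (ENSMUSG00000024660, chromosome 19, 9872297 to 9899533, minus strand) had the highest control level of the 10 per listed length, with 9.33, 10.5 and 11.4 FPKM. With metformin it had 38.2, 41.0 and 36.9 FPKM. Its fold was the smallest, at 3.72 (log2 fold change 1.80 ± 0.098).

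Birc5 (ENSMUSG00000017716, chromosome 11, 117849251 to 117855743, plus strand) had 4.14, 2.45 and 1.63 FPKM in the controls, the widest relative spread of the 10 with a coefficient of variation of 46.6%. Control replicate 1 was the highest, at 2.03 times the mean of the other controls. The metformin samples had 15.3, 15.0 and 15.4 FPKM, with a coefficient of variation of 1.34%. The fold was 5.57 with all samples and 7.47 without control replicate 1 (log2 fold change 2.17 ± 0.23).

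Cdca8 (ENSMUSG00000028873, chromosome 4, 124918465 to 124939311, minus strand) had the lowest level in both groups per listed length, at 1.48, 1.52 and 1.16 FPKM in the controls and 9.02, 9.17 and 9.38 FPKM with metformin. It was 6.63 times higher (log2 fold change 2.10 ± 0.090). The gene shares 2264 bases with 9930104L06Rik on the other strand, which had 4.09 to 4.55 FPKM in the controls and 2.71 to 2.97 FPKM with metformin, in the opposite direction to Cdca8.

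The subunits of the passenger complex did not move by the same factor. Of their summed FPKM, Aurkb made up 14.2% to 18.2% in the controls and 25.3% to 25.8% with metformin, and Cdca8 7.04% to 8.58% and 10.5% to 11.3%. Incenp made up 52.2% to 68.9% in the controls and 44.4% to 47.0% with metformin. For these 3 subunits the groups did not overlap. Birc5, with 9.89% to 23.2% and 17.2% to 18.5%, had metformin values inside its control range. The shares are of transcripts per listed length, follow from the folds above, and say nothing of protein.

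**Figure D2:**
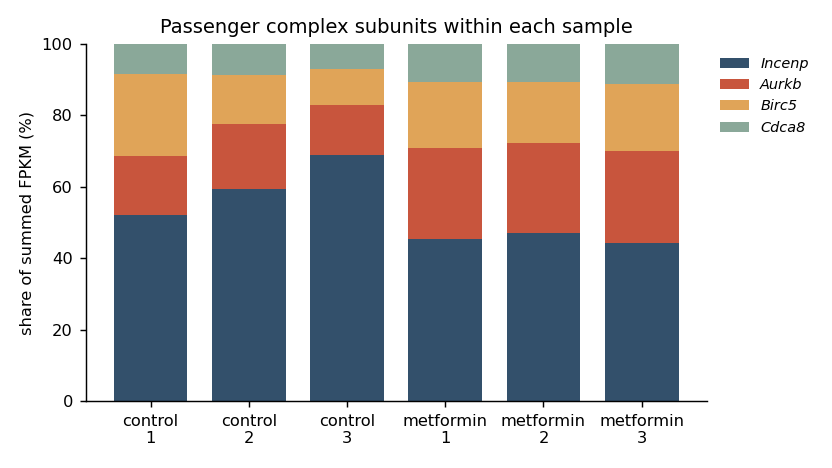
Share of each subunit gene in the summed FPKM of Incenp, Aurkb, Birc5 and Cdca8 (%), 1 bar per sample, with control samples on the left. The 3 metformin bars are nearly alike, while in the controls the Incenp share runs from 52.2% to 68.9% and the Birc5 share from 9.89% to 23.2%.

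Prc1 (ENSMUSG00000038943, chromosome 7, 80294450 to 80316259, plus strand) had 2.48, 1.61 and 1.78 FPKM in the controls and 11, 11.3 and 10.8 FPKM with metformin. Control replicate 1 was the highest, at 1.47 times the mean of the other controls. The fold was 5.65 (log2 fold change 2.04 ± 0.12). The whole Prc1 locus lies within an overlap of 21810 bases with Rccd1 on the other strand, a gene between 0.652 and 0.889 FPKM in all 6 samples. Their transcripts match over 670 bases, and whether the counting used strand is not given in the sources used here, so reads of this stretch could be split between them.

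Anln (ENSMUSG00000036777, chromosome 9, 22332012 to 22389188, minus strand) had 4.27, 2.37 and 2.32 FPKM in the controls and 21.8, 21.5 and 20.7 FPKM with metformin. Control replicate 1 was at 1.82 times the mean of the other controls. The fold was 7.14 with all samples and 9.09 without control replicate 1, the largest of the 10 on that basis (log2 fold change with all samples 2.52 ± 0.18).

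Ckap2l (ENSMUSG00000048327, chromosome 2, 129268210 to 129297212, minus strand) had 3.88, 4.01 and 2.79 FPKM in the controls and 28.2, 28.5 and 28.0 FPKM with metformin. Its fold of 7.94 was the largest of the 10 (log2 fold change 2.69 ± 0.12), which placed it at rank 6 of the 12681 tested genes by log2 fold change. At the other end, Incenp stood at rank 130 on the same scale, with 120 genes outside the 10 at or above it. Genes with low levels can have a larger fold than Incenp and stand below it on this scale. The lowest metformin value was between 3.25 times (Incenp) and 6.99 times (Ckap2l) the highest control value.

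The controls varied and the metformin samples hardly did. The median coefficient of variation of the 10 genes was 17.4% in the controls and 2.06% with metformin. Against counting error, where a variance index of recovered reads of 1 is what counting alone gives on average, the medians of the 10 were 7.79 in the controls, 6.76 in controls 2 and 3 alone, and 0.641 with metformin. For all tested genes the medians were 11.5 and 1.85. With so few samples, the median of this index under counting alone lies below 1, and lower for 2 samples than for 3. The 0.641 is thus not read as less than counting error, and 6.76 is not compared with 7.79. Each gene rested on between 101 reads (Plk1 in control replicate 1) and 4237 reads (Anln in metformin replicate 2). In all, the 10 genes took 0.0145% to 0.0172% of the reads of a control sample and 0.0921% to 0.0944% of those of a metformin sample.

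The deviation of control replicate 1 went with the base composition of the genes. Over all genes, the deviation of control replicate 1 from the other samples of its group went with the GC content of the longest transcript (Spearman's rho -0.668 across genes). Over the 10 genes rho was -0.806 and Pearson's r -0.783 as a description of 1 library, in which genes are not independent replicates. Plk1 (56.0% GC) and Incenp (54.7% GC) were lower in control replicate 1 than in both other controls. The other 8 genes were higher there than the mean of the other controls, and 5 of the 10 had their highest control value there. With the GC trend of each library removed, the log2 fold changes of the 10 genes ran from 1.75 (Incenp) to 2.62 (Ckap2l). All 10 were called higher there, beside 2062 of the 12681 tested genes, a count that the choice of the 10 fixes. Without control replicate 1 the folds of the 10 ran from 3.54 (Incenp) to 9.09 (Anln). The part that base composition had in the spread was not tested further.

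**Figure D3:**
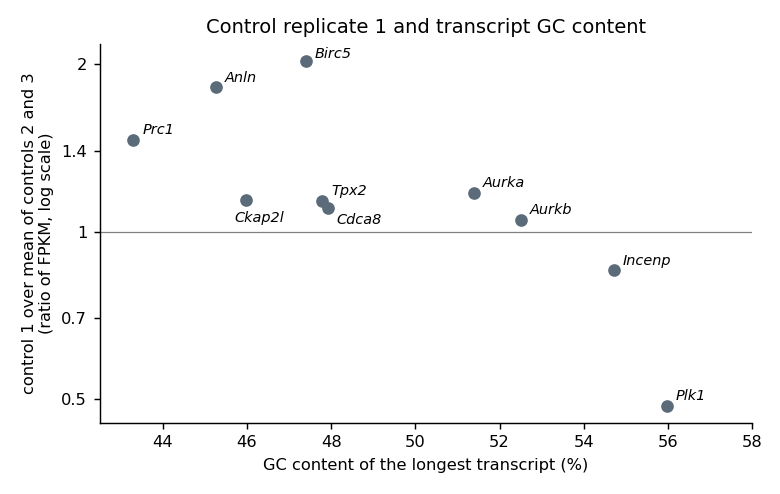
Ratio of control replicate 1 to the mean of control replicates 2 and 3 (FPKM, log axis) against the GC content of the longest transcript (%) for the 10 genes, with a line at 1. Birc5 (2.03, 47.4% GC) and Anln (1.82, 45.3% GC) lie highest, and Plk1 (0.488), with the highest GC content, lies lowest. The GC content of Birc5 is near the median of the 10 (47.9%). Prc1, with the lowest GC content (43.3%), lies at 1.47.

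Per listed length, the order of the control levels was Incenp, Tpx2, Plk1, Ckap2l, Aurka, Anln, Aurkb, Birc5, Prc1 and Cdca8. Incenp stood clear of Tpx2 and Prc1 clear of Cdca8, and all other neighbours in this order overlapped. With metformin the order was the same, except that Aurka and Aurkb had exchanged places. There, only Incenp and Tpx2, Plk1 and Ckap2l, and Aurkb and Anln overlapped. The order depends on the length: the listed length is 3.59 times that of the principal transcript for Birc5, 3.18 times for Cdca8 and 2.72 times for Prc1. Per principal transcript length, an alternative chosen after the values were seen, Birc5 moved from rank 8 to rank 2 in the controls and to rank 1 with metformin. Folds within a gene do not depend on this.

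The 5 other genes whose centred log2 values over the 6 samples lay nearest to the mean profile of the 10 were Tacc3 (root mean square difference 0.0491), Id3 (0.0493), Lmnb1 (0.0503), Kif4 (0.0692) and Fabp5 (0.087). The 10 genes themselves lay at 0.093 (Tpx2) to 0.342 (Plk1). Tacc3 stabilizes kinetochore fibres as a substrate of Aurora A, and Kif4 is the kinesin that works with Prc1 at the midzone. Id3 is an inhibitor of helix-loop-helix factors, Lmnb1 a protein of the nuclear lamina and Fabp5 a fatty acid binding protein. Id3 had 31.5, 33.2 and 26.8 FPKM in the controls and 159, 155 and 154 FPKM with metformin, so the profile was shared by a gene at a much higher level.

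Other genes of the same processes were read as lists, with limma-trend over all tested genes and 3 samples per group. In each list the count called higher is set beside the 13.2%, and the count called lower beside 9.28%, of all tested genes. The lists were drawn up with results of these samples known. For each list the 3 called genes with the largest change and the gene with the lowest log2 fold change are named, and any other gene named with them was picked after its values were seen.

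Of 18 other mitotic kinases tested, 14 rose and none fell (median log2 fold change 1.54). Melk rose 7.93-fold (1.93 to 15.3 FPKM, adjusted p = 0.000217), Bub1 of the spindle checkpoint 7.01-fold (adjusted p = 0.000491) and Pbk 5.90-fold (adjusted p = 0.00149). Cdk1, the kinase that starts mitosis, went from 5.84 to 25.7 FPKM. The other Polo kinases tested moved less, with log2 fold changes of 1.51 for Plk4, which duplicates centrioles, 0.70 for Plk2 and 0.65 for Plk3, beside 2.56 for Plk1. Nek9 had the lowest value, with a log2 fold change of -0.31 and an adjusted p of 0.0505, which ran from 0.0108 to 0.191 over the alternatives. Aurkc and Plk5 were under the limit of 0.5 FPKM and were not tested.

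Among 10 activators and adaptors of the Aurora and Polo kinases, 7 rose and none fell (median log2 fold change 0.68). The shugoshins Sgo1, which protects centromeric cohesion, and Sgo2a rose 6.32-fold and 4.55-fold, and Bora, the cofactor through which Aurora A activates Plk1, rose 3.05-fold (1.12 to 3.41 FPKM, adjusted p = 0.00628). The count was 4 without metformin replicate 1 and 4 without metformin replicate 2. Ajuba, another Aurora A cofactor, had 24.9 and 21.7 FPKM (adjusted p = 0.456).

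Of 36 spindle assembly factors 23 rose and none fell (median log2 fold change 0.85). The minus-end kinesin Kifc1 (7.40-fold), Kif18b (9.07-fold) and the microtubule destabilizer Stmn1 (6.0-fold) rose most by log2 fold change of FPKM + 1, while some genes with lower levels had larger folds than Kifc1 and Stmn1, such as Kif15 (0.317 to 2.65 FPKM). Among the other 13, the microtubule protein Psrc1 had 37.7 and 30.3 FPKM (adjusted p = 0.0957) and Numa1, which gathers microtubules at the spindle poles, 19.1 and 19.4 FPKM.

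In the list of 37 midzone and cytokinesis factors 18 rose and 1 fell (median log2 fold change 0.31). The genes that rose included the midzone kinesins Kif20a (7.39-fold), Kif23 and Kif4, the centralspindlin subunit Racgap1 (4.64 to 19.5 FPKM) and the RhoA exchange factor Ect2 (2.01 to 10.2 FPKM). Arhgap11a, a GTPase-activating protein for RhoA, rose 7.39-fold, and the myosin light chain Myl9, which smooth muscle and other contractile cells also use, 4.83-fold from 53.8 FPKM. None of the 7 tested abscission genes with a Chmp or Vps4 name, subunits of the ESCRT machinery, passed the threshold, with log2 fold changes of -0.18 to 0.38. Rhob fell to 0.653 times the control (log2 fold change -0.60, adjusted p = 0.0133), a call that was lost when any metformin replicate was left out.

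The machinery that removes Aurora kinases, Plk1 and cyclin B after anaphase changed in part. Of 20 genes of the anaphase-promoting complex and its partners 8 rose and 2 fell (median log2 fold change 0.21). The E2 enzyme Ube2c (6.93-fold), the coactivator Cdc20 (6.85-fold) and the inhibitor Fbxo5 (4.54-fold) rose most. Core subunits went both ways. Anapc5 rose from 25.6 to 45.4 FPKM (log2 fold change 0.81, adjusted p = 0.000652). Anapc15, Anapc11 and Cdc23 also rose (log2 fold changes 0.64, 0.41 and 0.28). The core subunits Anapc16 (log2 fold change -0.46, adjusted p = 0.0182) and Cdc26 (-0.38, adjusted p = 0.0328) fell. The 2 of 20 that fell are near the 9.28% of all tested genes called lower. The calls of Cdc26 and of the core subunits that rose were not followed over the alternatives. The count of genes that rose was 5 without metformin replicate 1 or 2, and the call of Anapc16 was lost without control replicate 2 or any metformin replicate.

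Of 26 mitotic phosphatases, regulatory subunits and inhibitors 4 rose, which is 15.4% and near the 13.2% of all tested genes, and none fell. They were Cdc25c and Cdc25b, which activate Cdk1, Cdca2, which brings protein phosphatase 1 to chromatin, and Ppp2r5d. Cdc25c rose 6.46-fold (1.09 to 7.07 FPKM). The count was 9 without control replicate 1. Ppp1cc, a catalytic subunit, had 89.8 and 72.2 FPKM (adjusted p = 0.0996).

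Among 21 regulators of G2 and M phase genes 9 rose and none fell (median log2 fold change 0.23). Foxm1 had 4.35, 3.64 and 3.62 FPKM in the controls and 28.3, 29.0 and 26.6 FPKM with metformin, 7.23-fold higher. Mybl2, the gene of B-Myb, rose 8.03-fold from 0.96 FPKM, and Rbl1, the pocket protein p107, 3.28-fold. Of the MuvB core, Lin9 and Lin54 rose (log2 fold changes 0.84 and 0.62), whereas Lin37 (9.50 and 6.82 FPKM, adjusted p = 0.126), Lin52 and Rbbp4 did not pass the threshold. Cdkn1a, the gene of the cell cycle inhibitor p21, had 194 and 154 FPKM (adjusted p = 0.316).

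The lists with the largest share of calls were those of kinetochores and condensins. Of 37 kinetochore genes 32 rose and none fell (median log2 fold change 1.31), led by log2 fold change of FPKM + 1 by Cenpm (7.5-fold), Spc25 (6.08-fold) and Kntc1 (7.86-fold), with Zw10 lowest at 8.45 and 8.88 FPKM. Of 9 genes of condensins and topoisomerase II alpha 8 rose (median log2 fold change 1.68), with Top2a 7.0-fold, Ncaph 6.89-fold and Smc2 5.55-fold higher. Ncaph2 of condensin II had 23.1 and 26.5 FPKM (adjusted p = 0.152).

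**Figure D4:**
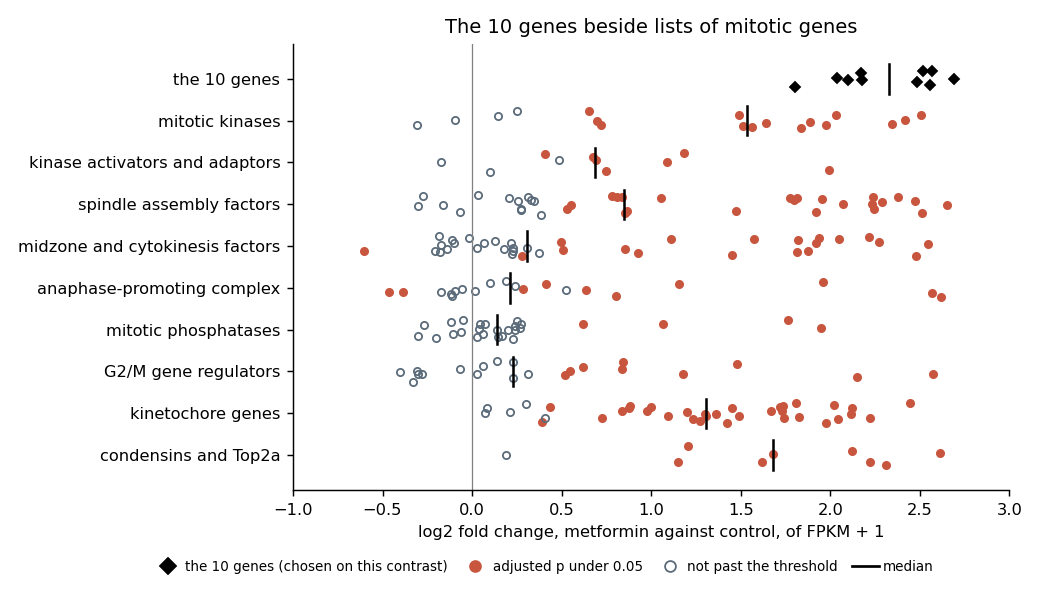
Log2 fold change (metformin against control, of FPKM + 1) of the 10 genes (black) and of each tested gene in 9 lists of mitotic genes, where filled red points passed the limma-trend threshold (adjusted p-value 0.05), open grey points did not, and bars are medians. The kinetochore and condensin lists lie mostly to the right of 0, and the phosphatase and anaphase-promoting complex lists cluster around 0 with a few genes past 1.5.

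TTTGAA was also counted in the promoters of other genes. Of 99 promoters of genes outside the 10 whose log2 fold change was at least that of Incenp, 47 held it (47.5%), and 38.4% held it within 50 bases of the start. In 11409 promoters of all other tested genes the shares were 11.9% and 3.06%, and in 1579 promoters of other genes called higher they were 15.8% and 7.47%. For CCAAT the share was 62.6% in the 99 and 38.2% in all tested. These shares are descriptions of genes chosen by their change.

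Samples held between 18399861 and 22111790 reads. All 11 osteoblast markers were above 3 reads in both groups, with summed levels of 10091 to 11852 FPKM in the controls and 6835 to 7233 FPKM with metformin. Spp1, at 6565 to 8357 FPKM and 2680 to 2727 FPKM, made up most of the sum in the controls. The markers did not move one way. Also lower with metformin were Ibsp (664 to 964 FPKM in the controls, 260 to 269 FPKM with metformin), Dmp1 (69.5 to 80.2, 35.3 to 38.8), Phex (0.356 to 0.714, 0.146 to 0.196) and Runx2 (28.6 to 34.1, 25.8 to 27.4). Higher were Col1a1 (927 to 1585 FPKM in the controls, 2366 to 2576 FPKM with metformin), Col1a2 (950 to 1002, 1378 to 1524) and Sp7 (36.8 to 47.1, 52.1 to 54.0). The groups overlapped for Bglap, Bglap2 and Alpl, the last at 2.44 to 3.84 FPKM over all samples. The muscle genes Myf5, Myod1 and Myog were at 0 in all samples (a limit of 3 reads, or 1.36e-05% to 1.63e-05% of a sample). The fourth muscle marker, Des, had 1.2 to 1.87 FPKM in the controls and 2.07 to 2.38 FPKM with metformin. Summed macrophage markers (2 of 4 over 3 reads) were 1.97 to 2.18 FPKM and 1.12 to 1.35 FPKM. Those of adipocytes (5 genes, Cidec at 0) were 1.76 to 3.08 FPKM and 2.08 to 2.45 FPKM, and those of endothelium (3 genes) at most 0.121 FPKM. Those of chondrocytes (4 genes) were 29.9 to 43.5 FPKM and 29.0 to 30.8 FPKM. Of these, Col10a1 had 3.27 to 4.62 FPKM in the controls and 0.176 to 0.322 FPKM with metformin. The other chondrocyte markers overlapped between the groups. Control replicate 1 had correlations of 0.96 and 0.952 across genes with the other controls, which had 0.988 with each other, and the metformin pairs had 0.992. The part of these marker differences in the results above was not tested.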

How the data were processed

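Total RNA of 6 MC3T3-E1 samples, 3 per group by the labels, was sequenced. The table that the authors deposited gives, for each gene, a length and 1 normalized value per sample, without naming the unit. The authors had scaled the reads of each gene by its length and by the library, since the deposited values are FPKM: multiplied by the length and divided by the worth of 1 read in that sample, they came out as whole numbers for 100% of values (tolerance 0.01), which were taken as the reads. The submitters' processing notes name Bowtie 0.12.2 and the builds mm8 and mm9, with no role. Identifiers and coordinates of the table matched GENCODE M21 (GRCm38) for 54409 and 53499 of 54532 genes. The counting tool and its strand setting are not given in the sources used here, and the study tested its genes with DESeq2.

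The groups were compared with limma 3.58.1 (R 4.3.3, intensity trend) on log2(FPKM + 1). The 12681 genes whose mean FPKM reached 0.5 were tested with a Benjamini-Hochberg threshold of 0.05. A count model, as the study used, was not the main test because the deposited values are FPKM. Voom on the recovered reads was run as an alternative. The 10 genes, the lists and the motifs were chosen with earlier results of these data known. Named were all 10 genes, per list the 3 called genes with the largest change and the gene with the lowest log2 fold change, and the 5 genes nearest in profile. Recovered depth was 18399861 to 22111790 reads per sample, and limits of 3 reads cover counting error only. The study calls the samples biological replicates, and whether they were separate cultures is not given, so p-values measure only the spread between these samples. On simulated data for this comparison (12681 genes), limma-trend recovered 177 of 200 altered genes, none with the wrong sign, and made 9 false calls. The simulation gave all genes and both groups the same spread beyond counting error, and no GC trend. The real controls varied more than the metformin samples and carried such a trend, so these counts do not carry over to the real samples. Promoters are reported for 6 of the 10 genes. Near-identical transcripts were searched with blastn 2.17.0 (95% identity over 200 bases). The alternatives tried were 0.1 as the pseudocount, total reads as the scale, no lower limit on FPKM, at least 10 reads in every sample, voom on recovered reads, the replicate block, a GC correction within each library with and without the block, leaving out each replicate and, added after the values were seen, the length of the principal transcript.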

Additional observations from a re-analysis of the deposited data

How the results depend on the processing

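All 10 genes were called higher under each of 14 alternative settings, a count that the choice of the genes fixes. None of their 140 log2 fold changes reversed. They ran from 1.73 (Incenp) to 3.0 (Ckap2l), and 124 of them moved by less than 1 SD between replicates. Some could not move: the limits on FPKM or reads and the replicate block leave the log2 fold change of a gene unchanged. The block also leaves the GC-corrected values as they were. The 16 that moved further were under the pseudocount of 0.1 and voom, for all of the 10 genes but Plk1 and Incenp. Over all tested genes, 1670 were called higher and 1177 lower. The lower calls moved to 698 with the replicate block (1161 higher), to 2433 with the GC correction (2062 higher) and to 1888 with the GC correction and the replicate block. The GC correction took the share of calls that were higher from 58.7% to 45.9% and shifted all genes by a median of -0.054 (log2). The labels do not say that replicate numbers pair the samples. The correlations of deviations between same-numbered samples were -0.0533, 0.000265 and -0.0549. Those between differently numbered samples ran from -0.0936 to 0.0940. With 3 samples per group, these values cannot decide whether the samples were paired. Leaving out 1 replicate gave 938 (without metformin replicate 1) to 2969 (without control replicate 1) higher genes and 495 to 2590 lower ones (without the same replicates). It gave 3 to 9 phosphatases, 4 to 8 kinase activators and adaptors, and 5 to 12 genes of the anaphase-promoting complex called higher. Of 126 list counts 121 stayed within 1.5 times. Among 574 values of other named genes, Zw10 alone changed sign (-0.0038 without control replicate 2, 0.18 without control replicate 1), 8 lost their call (Anapc16 with the replicate block, without control replicate 2 and without each metformin replicate, and Rhob without each metformin replicate) and 16 gained one. The causes were not tested.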
